A study of Mus musculus with 12 samples.

Results

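The response of Nlrp3-/- bone marrow-derived macrophages (BMDMs) to LPS+ATP is described here gene by gene. It was read from 6 of the 12 RNA-seq libraries of the series, 3 of unstimulated Nlrp3-/- BMDMs (Nlrp3-/- control) and 3 of Nlrp3-/- BMDMs given lipopolysaccharide (LPS) and then ATP (Nlrp3-/- LPS+ATP). The other 6 libraries are of wild-type BMDMs with and without the same stimulation, again 3 per group. BMDMs are macrophages grown from mouse bone marrow, here from C57BL/6 mice aged 8 weeks, by culture with macrophage colony-stimulating factor for 7 days, after which the adherent cells were taken. All 4 groups share that culture. The Nlrp3-/- mice lack the gene in every cell and came from another supplier than the wild-type mice. The labels give 4 hours of LPS and then 30 minutes of ATP, whereas the methods of the study give 12 hours and 2 hours, and which of them these libraries had is not settled here. Genes were measured as FPKM, fragments scaled to gene length and to the mapped fragments of the library, and 12622 of the 55335 genes in the table, those with at least 1 FPKM in at least 3 of the 12 libraries, were tested on log2(FPKM + 1).

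LPS is bound at the macrophage surface by CD14, MD-2 and TLR4. The receptor signals through MYD88 to NF-κB and MAP kinases, which switch on cytokine and chemokine genes, and through TRIF to IRF3 and interferon-β, whose receptor then drives interferon-stimulated genes through STAT factors. Extracellular ATP opens the P2X7 channel, and the fall in cell potassium that follows is the usual trigger for the sensor NLRP3 to assemble with ASC and caspase-1, which cleaves pro-IL-1β, pro-IL-18 and gasdermin D. The comparison asks what stimulation does to RNA levels when that sensor is missing.

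Nlrp3 was listed at 0 in all 6 Nlrp3-/- libraries, against means of 9.68 and 32.9 FPKM in wild-type control and wild-type LPS+ATP. The 6 libraries were close in depth, with relative depths read from the steps between low values of 1.003 to 1.055 (the number of reads is unknown) and 22159 to 22613 genes above 0. Over the tested genes, Pearson's r between libraries of a group was 0.990 to 0.992, and between a control and an LPS+ATP library it was 0.855 to 0.857, as a description across genes. The labels do not say whether the 3 libraries of a group came from separate mice or cultures, so the p-values measure the spread between libraries within groups, which may be technical. That spread was estimated over all 12 libraries, wild-type ones included. The 20 highest genes held 25.3 to 25.7% of all FPKM in control and 19.4% or 19.5% with LPS+ATP.

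With LPS+ATP, 838 genes were higher (6.64% of those tested) and 1036 were lower (8.21%) by at least 1 on the log2 scale at a Benjamini-Hochberg adjusted p under 0.05 (limma). These are the calls meant below by rose and fell. The rises were the larger changes. Of the genes that rose, 140 did so by at least 3 on the log2 scale, against 23 of those that fell, and 33 against 2 by at least 5. The genes that rose went from 4.14% of all FPKM in control to 24.2% with LPS+ATP, and those that fell from 16.9% to 6.87%. In 837 of the 838 and 1028 of the 1036 genes, the 3 LPS+ATP libraries did not overlap the 3 control libraries. The limits of a call make such separation likely, so it adds no support to the calls. The share over all tested genes was not counted. The median change over all tested genes was -0.24, and median-ratio scaling between libraries moved it by 0.23. After that scaling 1093 genes were higher and 604 lower, so that 64.4% of the calls were rises instead of 44.7%. Fold changes below are without that scaling, and the falls of genes close to the limit of 1 depend on it. Among the genes named below, Cebpa, Casp9, Psap, Pycard, P2ry1, Il1r1, Cxcl12, Idh2, Dhcr7, Hacd1, Bcl2l11, mt-Atp6, Abcg1, Plin2, Lta4h, Mmp12, P2rx1, Rara and Hbb-bs were no longer called after it, and B2m and Adgre1 were called as higher only then.

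**Figure D1:**
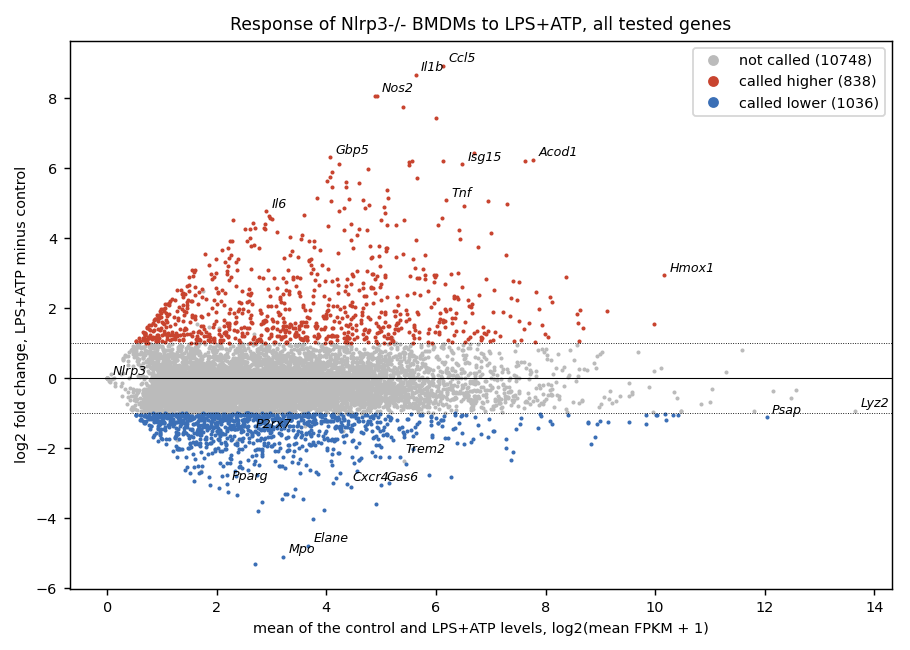
Change against level for the 12622 tested genes in Nlrp3-/- BMDMs. The horizontal axis is the mean of the control and LPS+ATP levels as log2(mean FPKM + 1), the vertical axis the log2 fold change (LPS+ATP minus control, limma), with dotted lines at 1 and -1. Red points rose (838) and blue points fell (1036). The rises reach 8.93 at Ccl5, whereas Mpo, the protein-coding gene that fell most, is at -5.10.

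The 15 protein-coding genes with the largest rises held 4 chemokines, 2 IL-1 ligands and several interferon-stimulated genes. Ccl5, a chemokine that draws T cells and monocytes, was at 2.18, 2.71 and 1.66 FPKM in control and 1537, 1519.6 and 1551 FPKM with LPS+ATP. It was the gene with the largest change, 8.93 on the log2 scale (SE 0.110, limma adjusted p = 5.76e-14). Il1b, the gene of pro-IL-1β, was at 1.73, 1.44 and 1.22 FPKM in control and 996, 994 and 995 FPKM with LPS+ATP, a change of 8.66 (SE 0.0620, limma adjusted p = 1.75e-15). The 3 stimulated libraries lay close together, and the mean rose 679.7 times over that of the controls. Nos2, the inducible nitric oxide synthase, was at 1.02, 0.692 and 0.813 FPKM in control and 487, 504 and 490.1 FPKM with LPS+ATP, a change of 8.07. Cxcl9, which draws T cells through CXCR3, was at 0.990, 0.697 and 0.734 FPKM in control and 484, 472 and 487 FPKM with LPS+ATP, a change of 8.06. The groups lay apart by a wide margin in both genes. Cxcl10 (7.75), Il1a (7.44), the complement factor Cfb (6.44), Gbp5 (6.31), Acod1 (6.24), the acute phase gene Saa3 (6.20), Ifit1 (6.20), Ifit3 (6.20), Rsad2 (6.19), Cxcl3 (6.13) and Isg15 (6.12) completed the 15, with limma adjusted p of at most 1.37e-13.

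The 15 largest falls among protein-coding genes were of another kind. Mpo, the myeloperoxidase of neutrophil granules, was at 58.4, 50.5 and 51.0 FPKM in control and 0.623, 0.589 and 0.544 FPKM with LPS+ATP, a change of -5.10 (SE 0.0610, limma adjusted p = 4.95e-14). Elane, the neutrophil elastase, was at 65.8, 66.5 and 64.2 FPKM in control and 1.16, 1.35 and 1.83 FPKM with LPS+ATP, a change of -4.78. Ltf (-4.01), Ctsg (-3.44), Prtn3 (-3.37) and Ms4a3 (-3.12) are granulocyte precursor genes too. The others included the inhibitory receptor Cd300a (-3.30), its relative Cd300lb (-3.75), the leukocyte F-actin-binding protein Lsp1 (-3.15), the stress-induced mTORC1 inhibitor Sesn1 (-3.31) and the GTPase-activating protein Arhgap19 (-3.78). Cd300lb was at 55.7, 57.0 and 56.3 FPKM in control and 3.19, 3.26 and 3.31 FPKM with LPS+ATP. Rab3il1 (-3.53), Slc46a3 (-3.34) and Sned1 (-3.26) completed the list with Mgll (-3.44), the monoglyceride lipase. Mgll was at 38.8, 38.6 and 14.02 FPKM in control and 1.58, 1.92 and 1.45 FPKM with LPS+ATP, so that 1 control library lay well below the others but above all 3 stimulated libraries.

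**Figure D2:**
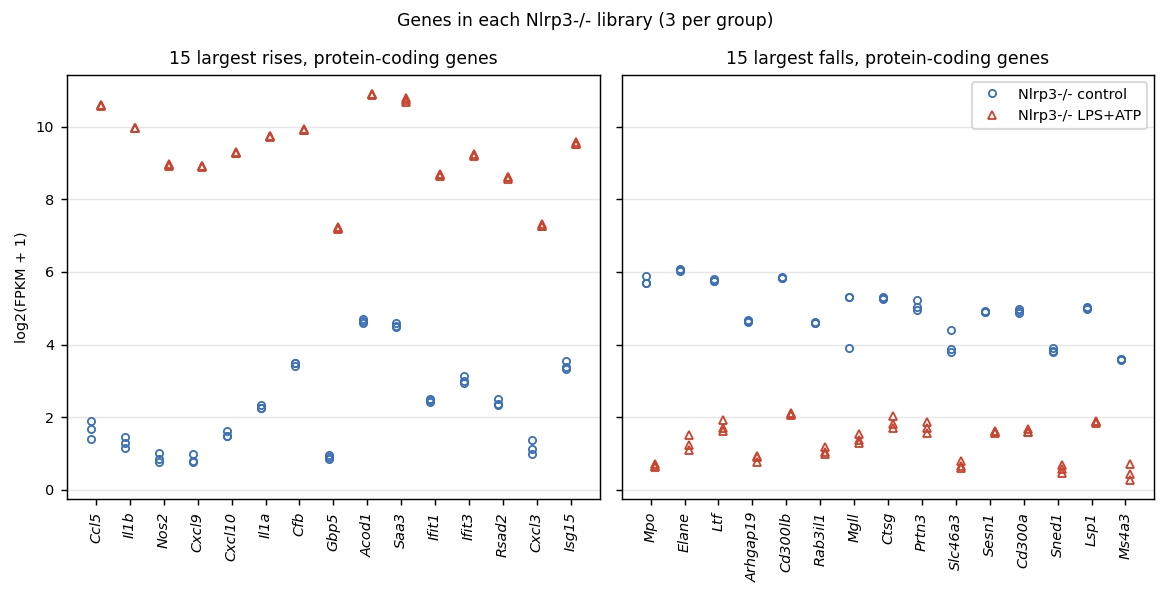
Levels of the 15 protein-coding genes with the largest rises (left) and the 15 with the largest falls (right) in each Nlrp3-/- library, as log2(FPKM + 1). Circles are the 3 control libraries and triangles the 3 LPS+ATP libraries. The groups do not overlap in any of the 30 genes, which the choice of genes required. The widest spread within a group is in the controls of Mgll (38.8, 38.6 and 14.02 FPKM).

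For 38 hand-written gene lists, the number of members that rose and fell is to be read against the 6.64% and 8.21% of all tested genes. The lists were written with earlier results of these data known, so their counts describe the members and are no independent support. The lists were described by these counts and by their median, beside -0.24 over all genes. Median-ratio scaling changed the sign of the median in 3 of the 38, the purinergic, MHC class II and fatty acid lists.

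**Figure D3:**
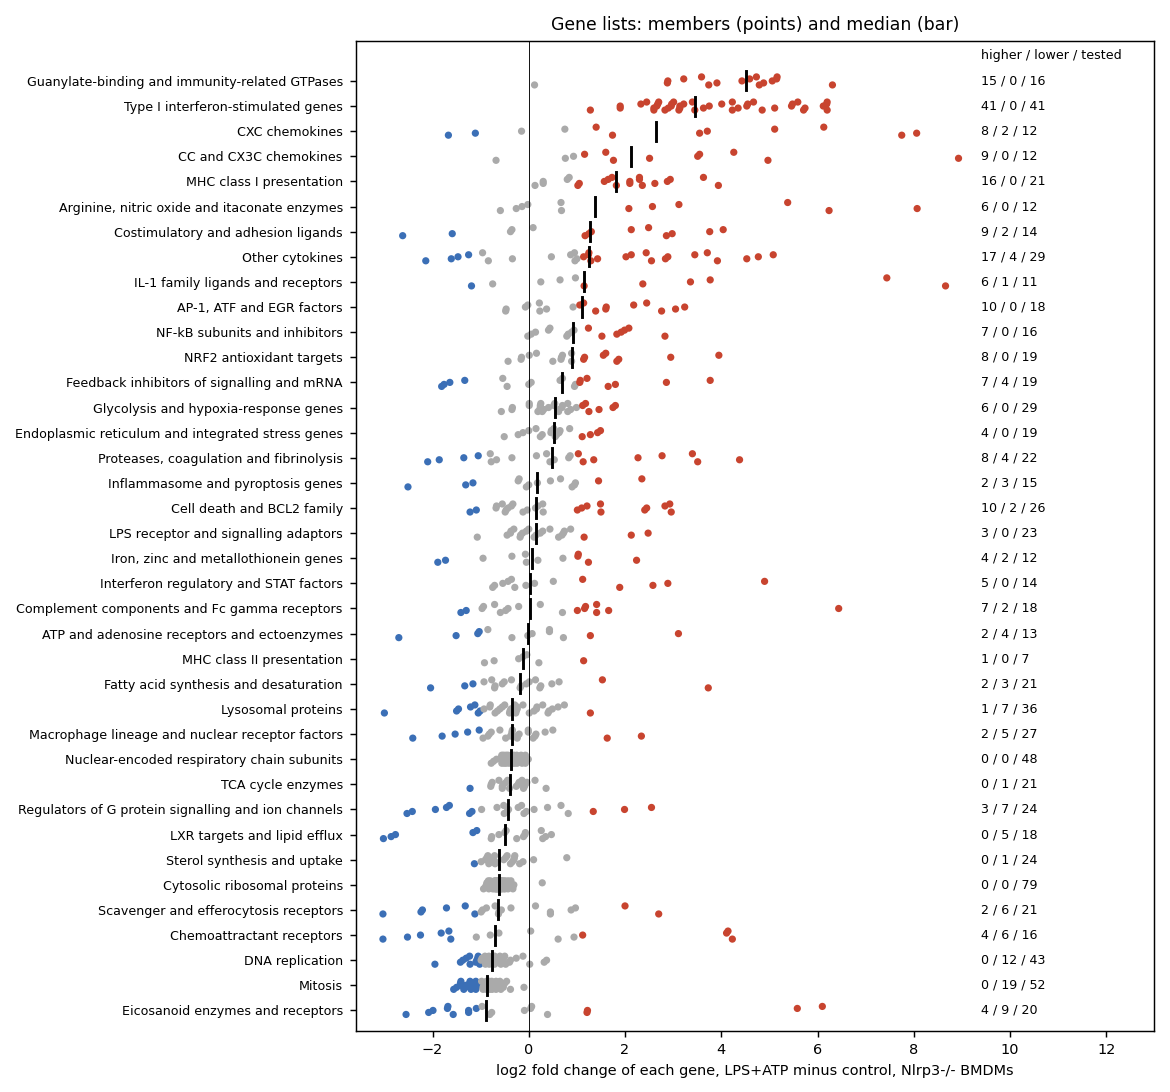
Log2 fold change of every tested member of 38 gene lists in Nlrp3-/- BMDMs (LPS+ATP minus control), sorted by the list's median (bar). Red members rose, blue members fell and grey members were not called, and the numbers at the right give members that rose, fell and were tested. Guanylate-binding and immunity-related GTPases lead with 15 of 16 members higher, and all 41 interferon-stimulated genes rose.

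Among the LPS receptor and its adaptors, 3 of 23 members rose and 0 fell, with a median of 0.15. Cd14, the co-receptor that hands LPS to TLR4, was at 94.5, 95.9 and 96.9 FPKM in control and 535, 538 and 538 FPKM with LPS+ATP, a change of 2.48 (limma adjusted p = 4.91e-15). Irak3, a kinase-dead relative of the IRAK kinases that restrains them, rose by 2.13, and Ikbke, a kinase of the IRF3 branch, by 1.15. Tlr4 itself, looked up after the values were seen, was at 3.95, 3.92 and 12.96 FPKM in control and 1.67, 2.46 and 3.01 FPKM with LPS+ATP. Its control libraries spread over a wide range, and its change of -1.07 was not significant (limma adjusted p = 0.149).

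Of 16 NF-κB subunits and inhibitors, 7 rose and 0 fell, and the 3 largest rises were of inhibitors. Tnfaip3, the ubiquitin-editing enzyme A20, was at 7.65, 5.17 and 4.48 FPKM in control and 38.2, 68.5 and 37.5 FPKM with LPS+ATP, a change of 2.83 (SE 0.323, limma adjusted p = 1.09e-05). The second stimulated library was well above the other two. Nfkbia, the inhibitor IκBα that NF-κB itself induces, was at 46.6, 45.4 and 46.7 FPKM in control and 194, 198 and 204 FPKM with LPS+ATP, a change of 2.08. Tnip1, which binds A20, rose by 1.99.

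Of 18 tested AP-1, ATF and EGR genes, 10 rose and 0 fell (median 1.10). Fosb was at 0.244, 0.126 and 0.172 FPKM in control and 11.3, 9.94 and 9.25 FPKM with LPS+ATP, a change of 3.24. Egr1, an immediate early zinc finger factor, was at 7.05, 7.32 and 7.16 FPKM in control and 67.8, 67.5 and 65.1 FPKM with LPS+ATP, a change of 3.05, and the immediate early gene Ier3 rose by 2.76. Among 19 feedback inhibitors of signalling and of mRNA, 7 rose and 4 fell. Socs1 and Socs3, which block JAK kinases, rose by 3.77 and 2.85, and Socs1 was at 0.661, 0.838 and 0.524 FPKM in control and 22.4, 21.4 and 21.3 FPKM with LPS+ATP. Zc3h12a, the RNase Regnase-1 that cuts cytokine mRNAs, rose by 1.80. Those that fell were Zfp36l1 (-1.81) and Zfp36l2 (-1.64), which bind AU-rich elements, and the phosphatases Dusp3 (-1.76) and Dusp7 (-1.33).

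In the IL-1 family 6 of 11 tested genes rose, all of them ligands, antagonists or a binding protein, and 1, the signalling receptor, fell (7 and 0 after median-ratio scaling). Il1a was at 3.77, 4.05 and 3.76 FPKM in control and 850.4, 833 and 851 FPKM with LPS+ATP. Il1rn, the receptor antagonist, was at 6.54, 7.09 and 6.03 FPKM in control and 102, 105 and 98.7 FPKM with LPS+ATP, a change of 3.77 (limma adjusted p = 1.1e-13). Il18 had a smaller change, with 10.9, 13.7 and 14.1 FPKM in control and 29.2, 29.6 and 30.9 FPKM with LPS+ATP and a log2 fold change of 1.16. Il1r1, the receptor of IL-1α and IL-1β, was at 8.06, 7.23 and 7.51 FPKM in control and 2.87, 2.75 and 2.71 FPKM with LPS+ATP, a change of -1.19, which was -0.94 after median-ratio scaling and then under the limit.

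Of 29 other cytokine genes tested, 17 rose and 4 fell (median 1.25). Tnf was at 11.96, 11.6 and 10.9 FPKM in control and 422, 428 and 416 FPKM with LPS+ATP, a change of 5.08 (SE 0.0450, limma adjusted p = 4.91e-15). Il6 was at 0.428, 0.363 and 0.486 FPKM in control and 39.3, 37.8 and 36.8 FPKM with LPS+ATP, a change of 4.77. Csf3, the granulocyte colony-stimulating factor, was at 0, 0.0347 and 0.0277 FPKM in control and 22.5, 22.6 and 22.9 FPKM with LPS+ATP, a change of 4.54. These 3 genes were close to silent or low in every control library and high in every stimulated library. Il10, the anti-inflammatory cytokine, was at 0.600, 0.512 and 0.406 FPKM in control and 5.67, 5.20 and 5.96 FPKM with LPS+ATP, a change of 2.13 that left it far below Tnf and Il6. Il4 and Il13, cytokines of type 2 responses, did not reach the filter on low values. Il4 was at 0.523, 0.771 and 0.723 FPKM in control and 0.154, 0.189 and 0.262 FPKM with LPS+ATP, and Il13 was listed at 0 in all 6 libraries. The genes that fell were Tnfsf12, the ligand TWEAK (-2.14), Tnfsf13, the ligand APRIL (-1.61), Tgfb3 (-1.47) and Il16 (-1.25).

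Chemokines followed the cytokines. Of 12 tested CXC chemokine genes 8 rose and 2 fell, and of 12 CC and CX3C chemokine genes 9 rose and 0 fell, with medians of 2.64 and 2.13. Cxcl10 was at 1.77, 1.78 and 2.06 FPKM in control and 625, 613 and 616 FPKM with LPS+ATP. Cxcl3, a neutrophil attractant that signals through CXCR2, was at 1.18, 1.56 and 0.996 FPKM in control and 160.0, 152 and 154 FPKM with LPS+ATP. Ccl3 was at 27.4, 28.7 and 25.6 FPKM in control and 909, 896 and 842 FPKM with LPS+ATP, a change of 4.97, and Ccl12, a ligand of CCR2, changed by 4.26. No stimulated library overlapped a control library in these 4 genes, and Ccl3 had the highest control level among them. The CXC chemokines that fell were Ppbp, a product of platelets and megakaryocytes, and Cxcl12, the stromal ligand of CXCR4. Ppbp was at 112, 106 and 106 FPKM in control and 35.0, 31.4 and 33.0 FPKM with LPS+ATP, a change of -1.68. Cxcl12 changed by -1.11, which was under the limit after median-ratio scaling (-0.83).

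Receptors for chemoattractants split into groups. Of 16 tested, 4 rose and 6 fell. The formyl peptide receptors Fpr1 and Fpr2, which detect bacterial peptides, rose by 4.14 and 4.23, and Fpr1 was at 32.8, 27.4 and 28.0 FPKM in control and 548, 533 and 524 FPKM with LPS+ATP. Ccrl2, an atypical receptor that binds chemerin, rose by 4.11. Cxcr4 was at 58.3, 58.1 and 57.9 FPKM in control and 6.43, 5.78 and 6.51 FPKM with LPS+ATP, a change of -3.03. Ccr2, the receptor of CCL2, was at 4.55, 3.43 and 4.79 FPKM in control and 0.105, 0.0600 and 0.137 FPKM with LPS+ATP, a change of -2.25. Thus Fpr1 and Fpr2 rose while the chemokine receptor genes Cxcr4 and Ccr2 fell.

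Interferon-stimulated genes rose without exception in their list, which was written with earlier results of these data known. All 41 of the 41 tested rose, by 1.28 to 6.20 on the log2 scale with a median of 3.45. Ifit1, which binds RNA without a methylated cap, was at 4.31, 4.56 and 4.63 FPKM in control and 403, 398 and 411 FPKM with LPS+ATP. Rsad2, the antiviral enzyme viperin, was at 4.67, 4.14 and 4.08 FPKM in control and 389, 379 and 389 FPKM with LPS+ATP. Isg15, a ubiquitin-like modifier, was at 10.7, 9.35 and 9.04 FPKM in control and 728, 728 and 765 FPKM with LPS+ATP. The means of the 3 genes rose 89.7, 89.7 and 76.3 times. Of the guanylate-binding proteins and immunity-related GTPases, which act on vacuoles that hold microbes, 15 of 16 rose, with a median of 4.51, the highest of the 38 lists. Gbp5 was at 0.945, 0.798 and 0.877 FPKM in control and 147, 150.1 and 144 FPKM with LPS+ATP, Gbp3 at 4.46, 5.25 and 4.82 FPKM in control and 203, 212 and 202 FPKM with LPS+ATP and Tgtp1 at 1.33, 1.54 and 1.28 FPKM in control and 84.2, 86.2 and 82.4 FPKM with LPS+ATP. Ifnb1, the gene of interferon-β, was under the filter, with 0, 0 and 0.103 FPKM in control and 0.737, 0.676 and 0.694 FPKM with LPS+ATP.

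Of 14 interferon regulatory and STAT factors, 5 rose and 0 fell. Irf7, which amplifies interferon production, was at 5.03, 5.24 and 4.99 FPKM in control and 175, 184 and 183 FPKM with LPS+ATP, a change of 4.90 (limma adjusted p = 1.75e-15). Stat2 (2.58), Irf1 (1.89) and Irf9 (1.12), which act in interferon signalling, were also among those that rose.

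The promoters of 4 of these genes are shown because the letters of NF-κB and interferon-responsive sites can be read in them. They were chosen for holding matches. The sequences are the 250 bases before the start from RefSeq (GRCm38.p6), 5′ to 3′ on the gene's strand, and capitals mark GGGANTTTC, a form of the κB site, and GAAANNGAA, a form of the interferon-stimulated response element, on either strand.
Cxcl9 (chr5:92328080-92328329, minus strand): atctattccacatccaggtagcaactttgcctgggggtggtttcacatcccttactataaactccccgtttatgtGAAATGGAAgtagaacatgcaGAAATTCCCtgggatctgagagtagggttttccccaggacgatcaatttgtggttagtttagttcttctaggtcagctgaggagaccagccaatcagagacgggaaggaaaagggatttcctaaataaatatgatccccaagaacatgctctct
Gbp5 (chr3:142496684-142496933, plus strand): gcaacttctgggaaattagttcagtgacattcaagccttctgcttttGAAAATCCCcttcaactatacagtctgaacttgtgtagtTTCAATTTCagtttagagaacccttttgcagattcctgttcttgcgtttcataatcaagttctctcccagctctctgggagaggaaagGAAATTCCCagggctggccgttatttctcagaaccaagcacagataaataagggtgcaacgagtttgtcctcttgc
Isg15 (chr4:156200819-156201068, minus strand): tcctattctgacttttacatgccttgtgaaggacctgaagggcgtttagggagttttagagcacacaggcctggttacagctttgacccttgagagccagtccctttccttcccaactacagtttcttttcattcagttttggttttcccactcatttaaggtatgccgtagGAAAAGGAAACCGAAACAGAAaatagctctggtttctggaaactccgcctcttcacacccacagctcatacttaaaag
Nfkbia (chr12:55492648-55492897, minus strand): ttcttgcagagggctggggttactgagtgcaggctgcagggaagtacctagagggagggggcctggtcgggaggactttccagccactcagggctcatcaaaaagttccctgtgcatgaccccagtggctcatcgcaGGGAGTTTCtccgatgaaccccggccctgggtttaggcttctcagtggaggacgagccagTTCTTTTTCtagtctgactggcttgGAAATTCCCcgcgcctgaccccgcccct

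In Isg15, 3 overlapping matches of GAAANNGAA form 1 run that begins 78 bases before the start. Gbp5 and Nfkbia each hold 2 matches of GGGANTTTC and 1 of GAAANNGAA, and Cxcl9 holds 1 of each. No match of 1 motif overlapped a match of the other in these 4. Of 32851 promoter windows of the same length in the table, 0.941% hold GGGANTTTC and 7.13% hold GAAANNGAA. A window was given for 76.1% of the protein-coding genes that rose and 77.1% of those that fell, under the 80% set for a comparison, so the share of motifs among them is void and not given. A match is a description of letters and not a bound site.

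MHC class I genes rose more often than class II genes were called. In the class I list 16 of 21 rose and 0 fell (median 1.82), and in the class II list 1 of 7 rose and 0 fell. The nonclassical gene H2-Q6 was at 12.2, 12.2 and 10.8 FPKM in control and 195, 194 and 194 FPKM with LPS+ATP and H2-Q7 at 8.52, 8.58 and 8.87 FPKM in control and 119.8, 118 and 118 FPKM with LPS+ATP, and H2-T22 changed by 2.94. H2-Ab1, the class II member that rose, was at 10.8, 14.1 and 12.6 FPKM in control and 24.6, 29.9 and 31.8 FPKM with LPS+ATP, a change of 1.14. B2m, the light chain of class I, was at 2289, 2332 and 2340.4 FPKM in control and 4169.7, 4033 and 3929 FPKM with LPS+ATP, a change of 0.80 that was over the limit after median-ratio scaling (1.09). Of 14 costimulatory and adhesion ligands, 9 rose and 2 fell. Cd40 was at 1.42, 1.504 and 1.497 FPKM in control and 37.7, 39.6 and 42.0 FPKM with LPS+ATP, a change of 4.04. Cd274, the checkpoint ligand PD-L1, was at 28.2, 28.7 and 28.5 FPKM in control and 401, 397 and 396 FPKM with LPS+ATP, a change of 3.76, and Slamf1 changed by 2.98. The pair that fell was the checkpoint protein Vsir, known as VISTA (-2.62), and Cd83 (-1.59), with 28.5, 26.6 and 39.8 FPKM in control and 3.62, 5.06 and 4.09 FPKM with LPS+ATP for Vsir.

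Of the 15 tested inflammasome genes, Nlrp3 included, 2 rose and 3 fell. The balance depended on the scaling, with 5 higher and 2 lower after median-ratio scaling and 5 and 3 after upper-quartile scaling. Casp4, the gene of caspase-11, which binds LPS in the cytosol, was at 4.42, 3.66 and 4.09 FPKM in control and 24.5, 25.3 and 24.5 FPKM with LPS+ATP, a change of 2.35 (limma adjusted p = 5.26e-11). Casp1 was at 17.7, 19.6 and 16.8 FPKM in control and 51.2, 52.3 and 49.0 FPKM with LPS+ATP, a change of 1.45. Pycard, the adaptor ASC, was at 12.5, 10.7 and 11.6 FPKM in control and 4.40, 4.89 and 4.68 FPKM with LPS+ATP, a change of -1.16 that was under the limit after median-ratio scaling (-0.89). Nlrp1b, another sensor, was at 6.60, 6.22 and 6.71 FPKM in control and 0.256, 0.370 and 0.325 FPKM with LPS+ATP, a change of -2.51. Nek7, the kinase that NLRP3 needs, was at 16.8, 5.04 and 17.4 FPKM in control and 8.005, 3.04 and 2.54 FPKM with LPS+ATP. The groups of Nek7 overlapped, and its change of -1.31 (SE 0.416, limma adjusted p = 0.0141) was no longer significant without control library 1 or 3 or LPS+ATP library 2 or 3, with values of -1.04 to -1.15.

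Of 13 tested purinergic genes, 2 adenosine receptors rose and 4 genes fell, 3 of them nucleotide receptors (2 and 2 after median-ratio scaling). P2rx7, the channel through which ATP acts on the inflammasome, was at 9.20, 8.69 and 10.01 FPKM in control and 2.69, 2.73 and 2.43 FPKM with LPS+ATP, a change of -1.51 (SE 0.123, limma adjusted p = 6.13e-07). Entpd1, the ectoenzyme CD39 that degrades ATP, was at 29.3, 28.1 and 27.4 FPKM in control and 3.73, 3.25 and 3.50 FPKM with LPS+ATP, a change of -2.70. P2ry1 (-1.06) and P2rx1 (-1.03) were the others that fell. Adora2a, an adenosine receptor coupled to cAMP, was at 2.29, 2.17 and 2.62 FPKM in control and 27.7, 28.7 and 27.3 FPKM with LPS+ATP, a change of 3.11, and Adora2b was at 2.08, 1.55 and 1.81 FPKM in control and 5.28, 6.25 and 5.94 FPKM with LPS+ATP, a change of 1.28.

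Enzymes of arginine and itaconate metabolism rose in 6 of 12 cases and 0 fell. Acod1, which makes itaconate from a citric acid cycle intermediate, was at 23.4, 24.3 and 24.9 FPKM in control and 1889, 1915 and 1904 FPKM with LPS+ATP, a change of 6.24. Slc7a2, the arginine transporter, was at 3.55, 6.55 and 3.22 FPKM in control and 219.7, 215 and 220.5 FPKM with LPS+ATP, a change of 5.38. Together with Nos2, this puts the importer of arginine and the enzyme that uses it among the genes with rises of over 5. Of 29 genes of glycolysis and hypoxia, 6 rose and 0 fell (median 0.54). Pfkfb3, which makes an activator of phosphofructokinase, was at 5.42, 6.41 and 12.8 FPKM in control and 28.3, 30.6 and 29.0 FPKM with LPS+ATP, a change of 1.80 with 1 control library apart. Egln3, an oxygen sensor, changed by 1.75 and Slc2a1, the glucose transporter GLUT1, by 1.46. Mitochondrial genes were hardly called. Of 21 citric acid cycle enzymes 1 fell, Idh2, with 24.5, 24.7 and 27.2 FPKM in control and 10.5, 9.64 and 10.9 FPKM with LPS+ATP and a change of -1.22, and of 48 nuclear-encoded respiratory chain subunits 0 rose and 0 fell (limma, lowest -0.78, highest -0.01). The medians of both lists, -0.40 and -0.36, were close to that of all genes.

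Targets of the antioxidant factor NRF2 rose in 8 of 19 cases and 0 fell. Hmox1, the heme oxygenase, was at 415, 412 and 415 FPKM in control and 3184, 3204 and 3197 FPKM with LPS+ATP, a change of 2.94, and became one of the 10 highest genes. Slc7a11, the cystine importer, was at 4.55, 4.99 and 4.21 FPKM in control and 86.1, 84.5 and 85.0 FPKM with LPS+ATP, a change of 3.95, and Srxn1 changed by 1.87. Of 19 genes of endoplasmic reticulum and integrated stress, 4 rose and 0 fell. The chaperone Hspa5 was at 164, 163 and 158 FPKM in control and 388, 396 and 398 FPKM with LPS+ATP, a change of 1.28, beside Creld2 (1.49), Ppp1r15a (1.43) and Manf (1.11).

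Of 20 tested eicosanoid enzymes and receptors, 4 rose and 9 fell. Ptgs2, the inducible cyclooxygenase, was at 2.52, 2.38 and 2.58 FPKM in control and 163, 164 and 169.8 FPKM with LPS+ATP, a change of 5.58. Ptges, the prostaglandin E synthase, was at 4.64, 4.23 and 4.68 FPKM in control and 369, 363 and 403 FPKM with LPS+ATP, a change of 6.10, and Pla2g4a, the phospholipase that frees arachidonic acid, changed by 1.22. Hpgd, which degrades prostaglandins, was at 12.8, 12.5 and 11.5 FPKM in control and 1.64, 0.840 and 1.36 FPKM with LPS+ATP, a change of -2.55. Hpgds, the synthase of prostaglandin D2, changed by -1.995 and Alox5, the first enzyme of leukotriene synthesis, by -2.08, with 6.51, 6.22 and 8.33 FPKM in control and 1.02, 0.818 and 0.826 FPKM with LPS+ATP. Alox5ap (-1.57), Lta4h (-1.25) and Ltc4s (-1.25), the next steps of leukotriene synthesis, fell too, and were named after their values were seen.

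In fatty acid synthesis 2 of 21 genes rose and 3 fell. The acyl-CoA synthetase Acsl1 was at 9.34, 6.23 and 9.87 FPKM in control and 117, 122 and 129 FPKM with LPS+ATP, a change of 3.73, and Acsl5 changed by 1.53. Hacd4 (-2.04), the elongase Elovl6 (-1.33) and Hacd1 (-1.16) fell. Genes of polyunsaturated fatty acid desaturation and elongation were below the limit of 1. Fads1 was at 38.4, 35.8 and 37.6 FPKM in control and 22.99, 20.98 and 23.3 FPKM with LPS+ATP (-0.71), Fads2 at 29.6, 29.7 and 28.4 FPKM in control and 23.1, 22.2 and 22.1 FPKM with LPS+ATP (-0.36) and Elovl5 at 22.8, 24.7 and 23.2 FPKM in control and 12.5, 12.5 and 10.7 FPKM with LPS+ATP (-0.93). In each of them all 3 stimulated libraries were below all 3 controls, with limma adjusted p of at most 9.57e-05. These falls are to be read against those of all genes. With no fold limit, 6789 of the 12622 tested genes were lower at an adjusted p under 0.05 (limma). The median over all tested genes was -0.24, and median-ratio scaling moved it by 0.23. Sterol synthesis and uptake had 1 gene of 24 that fell, Dhcr7 (-1.13), and a median of -0.61. In the list of LXR targets and lipid efflux, 0 of 18 rose and 5 fell. Pparg, a nuclear receptor of lipid handling, was at 11.7, 11.2 and 12.8 FPKM in control and 0.510, 0.571 and 0.692 FPKM with LPS+ATP, a change of -3.02. Lpl, the lipoprotein lipase, was at 151, 153 and 149.7 FPKM in control and 21.6, 21.3 and 21.2 FPKM with LPS+ATP, a change of -2.77, and the fatty acid-binding protein Fabp4 was at 48.0, 45.6 and 48.7 FPKM in control and 5.32, 6.33 and 5.40 FPKM with LPS+ATP, a change of -2.86. Plin2 (-1.16) and Abcg1 (-1.08) were the others.

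Of 21 scavenger and efferocytosis receptors, 2 rose and 6 fell (4 and 5 after median-ratio scaling). Gas6, the bridging ligand of the AXL and MERTK receptors, was at 91.7, 89.2 and 91.4 FPKM in control and 10.2, 10.9 and 9.54 FPKM with LPS+ATP, a change of -3.03. Trem2, a lipid-sensing receptor, was at 88.5, 85.3 and 88.6 FPKM in control and 17.5, 17.9 and 17.8 FPKM with LPS+ATP, a change of -2.24, and Mrc1, the mannose receptor, at 61.8, 64.1 and 62.5 FPKM in control and 13.4, 12.1 and 12.8 FPKM with LPS+ATP, a change of -2.21. Marco, a scavenger receptor for bacteria, went the other way, with 28.2, 26.0 and 26.8 FPKM in control and 179.8, 178 and 187 FPKM with LPS+ATP and a change of 2.70, and Olr1 changed by 1.995. Of 36 lysosomal genes 1 rose, the cathepsin Ctsc (1.28), and 7 fell (2 and 3 after median-ratio scaling). Atp6v0d2, a subunit of the proton pump, was at 93.6, 103 and 101 FPKM in control and 11.5, 12.1 and 10.9 FPKM with LPS+ATP, a change of -2.999. Lipa, the acid lipase, changed by -1.504 and Tfeb, a master regulator of lysosomal genes, by -1.46, with 7.42, 7.58 and 5.71 FPKM in control and 1.34, 2.13 and 2.18 FPKM with LPS+ATP. Of 18 complement and Fc gamma receptor genes 7 rose and 2 fell. Cfb was at 10.3, 9.67 and 10.4 FPKM in control and 970.1, 952 and 965 FPKM with LPS+ATP. The high-affinity receptor Fcgr1 rose by 1.66 and the inhibitory receptor Fcgr2b by 1.41, while Fcgr3 fell (-1.30).

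Among factors of the macrophage lineage and nuclear receptors 2 of 27 rose and 5 fell (2 and 3 after median-ratio scaling). Maf, a factor of macrophage differentiation, was at 32.4, 31.9 and 31.8 FPKM in control and 8.57, 8.13 and 8.80 FPKM with LPS+ATP, a change of -1.80. Cebpb, a factor of inflammatory gene expression, was at 106, 102 and 99.8 FPKM in control and 315, 315 and 328 FPKM with LPS+ATP, a change of 1.63, and Nr4a1 at 2.32, 2.41 and 2.75 FPKM in control and 17.3, 16.8 and 15.7 FPKM with LPS+ATP, a change of 2.34. Cebpa was at 41.9, 41.8 and 39.9 FPKM in control and 13.3, 13.1 and 14.3 FPKM with LPS+ATP. Its change was -1.53 (SE 0.606, limma adjusted p = 0.0392), and this call was lost without any 1 of the 6 libraries in turn (-1.51 to -1.57). The SE is pooled over all 4 groups, wild-type libraries included, whereas the Nlrp3-/- libraries lay close together within each group. Among the other falls were Gfi1 (-1.27) and Rara (-1.03). Of 22 proteases and clotting genes 8 rose and 4 fell (10 and 3 after median-ratio scaling). Procr, the protein C receptor, was at 7.88, 7.67 and 6.84 FPKM in control and 174, 177 and 173 FPKM with LPS+ATP, a change of 4.38, with F10, the coagulation factor X, at 3.51 and the plasminogen activator inhibitor Serpinb2 at 3.40. Mmp8, a collagenase of granulocytes, was at 340.3, 361 and 347 FPKM in control and 83.8, 79.97 and 78.8 FPKM with LPS+ATP, a change of -2.10, and Timp2 (-1.86), F13a1 (-1.35) and Mmp12 (-1.05) fell too.

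In iron and metal handling 4 of 12 genes rose and 2 fell. Lcn2, which binds bacterial siderophores, was at 41.6, 45.1 and 42.9 FPKM in control and 212, 218 and 194 FPKM with LPS+ATP, a change of 2.24. Slc39a14, a zinc and iron importer, rose from 3.57 to 9.79 FPKM on average. Mt2 (1.03) and Slc11a2 (1.02) rose too. Tfrc, the transferrin receptor, was at 57.9, 59.8 and 58.5 FPKM in control and 15.4, 14.7 and 15.1 FPKM with LPS+ATP, a change of -1.89, and Slc40a1, the iron exporter ferroportin, at 21.7, 21.3 and 20.9 FPKM in control and 5.95, 5.73 and 5.49 FPKM with LPS+ATP, a change of -1.73, so that the genes of the importer and the exporter fell together. Of 24 RGS, G protein and ion channel genes 3 rose and 7 fell (4 and 5 after median-ratio scaling). Rgs16 (2.55), the potassium channel Kcna3 (1.99) and Clic4 (1.34) rose, and Rgs18 (-2.53), Rgs10 (-2.42) and Rgs2 (-1.94) fell, with 21.6, 21.2 and 23.1 FPKM in control and 5.09, 4.98 and 4.95 FPKM with LPS+ATP for Rgs2.

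Cell death genes had 10 of 26 higher and 2 lower (10 and 0 after median-ratio scaling). Mlkl, the executioner of necroptosis, was at 9.54, 10.8 and 9.75 FPKM in control and 84.1, 80.4 and 84.0 FPKM with LPS+ATP, a change of 2.93. The survival genes Bcl2a1d (2.96) and Bcl2a1a (2.83) rose, and Bcl2l11, the killer BIM, was at 9.98, 9.43 and 8.46 FPKM in control and 3.38, 3.36 and 3.45 FPKM with LPS+ATP, a change of -1.22. Casp9 changed by -1.09, which was under the limit without the first LPS+ATP library (-0.98) and after median-ratio scaling (-0.83). Genes of the cell cycle fell or were not called. In DNA replication 0 of 43 rose and 12 fell (median -0.76), and in mitosis 0 of 52 rose and 19 fell (median -0.87). After median-ratio scaling 4 and 9 members were lower. E2f2 was at 4.36, 4.61 and 5.08 FPKM in control and 0.627, 0.424 and 0.352 FPKM with LPS+ATP, a change of -1.96, and Rrm2, the ribonucleotide reductase subunit, at 16.2, 15.3 and 16.2 FPKM in control and 5.55, 5.53 and 5.49 FPKM with LPS+ATP, a change of -1.37. Mcm7 of the replicative helicase changed by -1.43, the condensin subunit Ncapd2 by -1.56, the centromere histone Cenpa by -1.503 and the kinesin Kif20a by -1.42. Of 79 ribosomal protein genes 0 were called in either direction (limma), although 78 of them had a negative change and their median was -0.62 (-0.33 after median-ratio scaling).

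The 10 genes with the highest levels under LPS+ATP held lysosomal and ferritin genes. Lyz2, the lysozyme of macrophages, was at 17533, 17761 and 17785 FPKM in control and 9272, 9442 and 9212 FPKM with LPS+ATP, a change of -0.93. Psap was at 6229.6, 6116 and 6174 FPKM in control and 2857, 2815 and 2865 FPKM with LPS+ATP (-1.12, -0.82 after median-ratio scaling) and Ctsd at 4876, 4990.1 and 4925 FPKM in control and 2621, 2540.1 and 2609 FPKM with LPS+ATP (-0.93). Acod1, at a mean of 1903 FPKM, and Hmox1, at 3195 FPKM, were the members of the 10 highest that rose. The others were B2m, the ferritin chains Ftl1 (-0.35) and Fth1 (0.19, limma adjusted p = 0.196), mt-Co1 (-0.56) and Gm22133 (-0.34), which lies within Ftl1.

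Of the 179 genes named by rule, 41 overlap another gene or have a near copy, so the counting could have split their reads. Among those given above these are Cfb, Ifit3, Isg15, Prtn3, Sned1, Il1a, Lyz2, Ftl1, Gm22133, mt-Co1, Ctsd, Irf7, Irak3, Ikbke, P2ry1, Tnfsf12, Tnfsf13, Fpr2, Tgtp1, H2-Q6, H2-T22, Cd274, Slc2a1, Acsl1, Acsl5, Hacd4, Hacd1, Fcgr3, Cebpb, Serpinb2, Mt2, Bcl2a1d, Bcl2a1a, Mcm7 and Kif20a. Strand was not stated, so reads of antisense neighbours cannot be told apart. Members that complete counts of at most 5, such as Dusp7, Il16, Irf1, Irf9, P2rx1, Manf, Plin2, Abcg1, Gfi1, Rara, Mmp12 and Slc11a2, were named after their values were seen, as were Ifnb1 and Tlr4.

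Markers were used to check the label. All 10 macrophage marker genes were above the filter (Itgam under 2 identifiers), and their summed level was 19204 to 19448 FPKM in control and 11212 to 11462 FPKM with LPS+ATP, most of it Lyz2. Cd14 and Fcgr1 rose, and Adgre1, which encodes F4/80, was at 185, 181 and 186 FPKM in control and 326, 324 and 330.2 FPKM with LPS+ATP, and Csf1r at 161, 167 and 165 FPKM in control and 179.9, 174 and 174 FPKM with LPS+ATP. Genes of other cell types were present. Of 14 granulocyte markers 13 were tested, 9 fell and 1 rose (Lcn2), and the sum went from 1941 to 1987 FPKM in control to 764 to 775 FPKM. S100a9 was at 871, 849 and 865 FPKM in control and 261, 257 and 283 FPKM with LPS+ATP, a change of -1.69, and Ngp at 374, 371 and 364 FPKM in control and 71.7, 72.4 and 74.9 FPKM with LPS+ATP, a change of -2.33. Ly6g, which marks mature neutrophils, was at 0.553, 0.311 and 0.781 FPKM in control and 0.264, 0.101 and 0.140 FPKM with LPS+ATP. In bulk RNA, fewer cells of a type and less RNA per cell cannot be told apart, and the part of granulocyte cells in the falls of Mpo, Elane, Ltf, Ctsg, Prtn3, Ms4a3 and Mmp8 was not tested.

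Of 11 fibroblast and mesenchymal markers, all tested, 0 rose and 0 fell (limma, -0.94 to 0.59), and their sum was 1551 to 1568 FPKM in control and 1166 to 1182 FPKM with LPS+ATP. Col1a1 was at 652, 660.0 and 643 FPKM in control and 505, 509 and 510.1 FPKM with LPS+ATP. Of 5 megakaryocyte markers Ppbp fell, and Pf4 was at 281, 279 and 267 FPKM in control and 246, 246 and 253 FPKM with LPS+ATP. The changes of Itga2b (-0.89), Gp9 (-0.98) and Gp1bb (-0.99) were just under the limit. Of 6 osteoclast markers 2 rose, Calcr (2.25) and Acp5 (1.23), with a sum of 135 to 142 FPKM in control and 241 to 246 FPKM with LPS+ATP. Atp6v0d2, which the study also used as an osteoclast marker, is not in this list and fell, as given with the lysosomal genes. The rise of the sum therefore depends on which markers the list holds. The sums of the erythroid (Hbb-bs fell), endothelial, mast cell (Cpa3 fell), B cell, T and NK cell and dendritic cell lists were at most 17.0 FPKM in every library. Mcpt4, a mast cell protease gene, was listed at 0 in all 6 libraries.

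**Figure D4:**
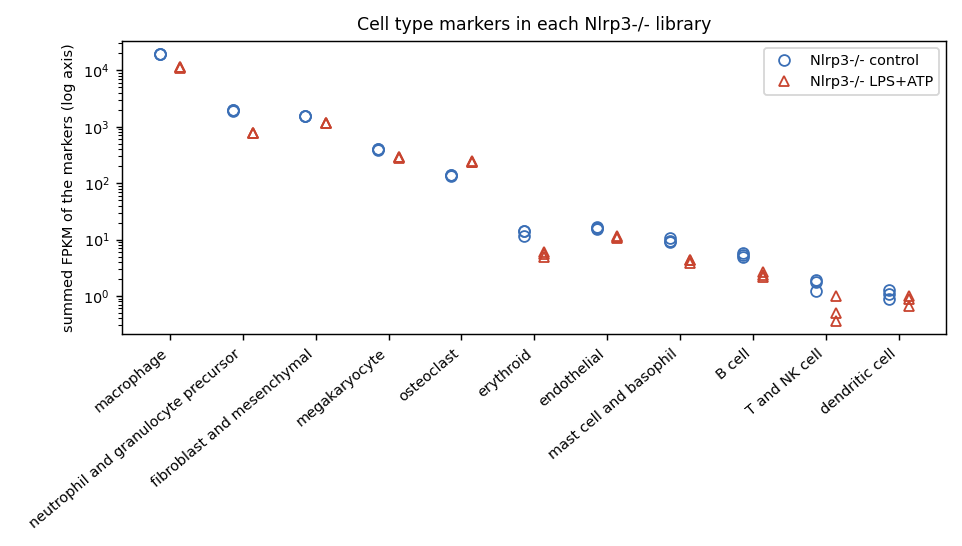
Summed FPKM of 11 lists of cell type markers in each Nlrp3-/- library, on a log axis. Circles are control and triangles LPS+ATP libraries. Granulocyte markers go from between 1941 and 1987 FPKM to between 764 and 775 FPKM, fibroblast markers from between 1551 and 1568 FPKM to between 1166 and 1182 FPKM, and the last 6 lists lie at or under 17.0 FPKM.

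The response was then set beside that of wild-type BMDMs, in which 1041 genes rose (8.25%) and 1411 fell (11.2%). The genotypes share no libraries. Of the 838 genes that rose in Nlrp3-/- BMDMs 737 also rose in wild-type BMDMs, which is 87.9% of the former and 70.8% of the latter. Of the 1036 that fell, 778 fell in wild-type BMDMs too, 75.1% and 55.1% of each. Called in opposite directions were 2 genes, Ppbp (-1.68 in Nlrp3-/- and 1.34 in wild-type BMDMs) and mt-Atp6 (-1.05 and 1.71, with -0.76 in Nlrp3-/- BMDMs after median-ratio scaling). mt-Atp6 overlaps mt-Atp8 and mt-Co3. Other megakaryocyte markers also went in opposite directions without being called in Nlrp3-/- BMDMs. Itga2b changed by -0.89 in Nlrp3-/- and 1.22 in wild-type BMDMs, Gp9 by -0.98 and 0.61 and Gp1bb by -0.99 and 0.71. Pf4 changed by -0.15 and 0.03.

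The difference of the responses, Nlrp3-/- minus wild-type, was tested as an interaction term with the same limits. It was positive for 91 genes (0.721%) and negative for 180 (1.43%). Among the 838 genes that rose in Nlrp3-/- BMDMs, 54 rose by less than in wild-type BMDMs and 22 by more. Il1b had a difference of -1.46 (limma adjusted p = 1.75e-15 in Nlrp3-/-, 8.59e-07 for the difference), Nos2 of -1.65, Acod1 of -2.07 and Ptgs2 of -1.96. Mean FPKM of Il1b went from 1.46 to 995 in Nlrp3-/- and from 0.239 to 1386 in wild-type BMDMs. For Nos2 these means were 0.843 to 494 and 0.191 to 1004. They were 24.2 to 1903 and 9.13 to 3206 for Acod1, and 2.49 to 166 and 0.327 to 245 for Ptgs2. Higher Nlrp3-/- controls and lower stimulated means thus both enter these differences. Inhba, the βA subunit of activin, had the most negative difference among the genes that rose, -2.83, with 8.29, 8.50 and 7.73 FPKM in control and 77.0, 74.3 and 77.8 FPKM with LPS+ATP and a change of 3.08 against 5.90 in wild-type BMDMs. Each of these genes rose in both genotypes. For Tnf the difference was just under the limit (-0.999), and for Il6 it was -0.58 and for Cxcl10 0.46. Cxcl9 (1.21), Ifit3 (1.41) and Fosb (1.81) rose by more in Nlrp3-/- BMDMs. Fpr1 (-2.16), Fpr2 (-2.35), Lcn2 (-2.08) and Adora2b (-2.25) rose by less. Mean FPKM of Fpr1 went from 29.4 to 535 in Nlrp3-/- and from 5.47 to 501 in wild-type BMDMs. For Fpr2 these means were 18.7 to 368 and 3.29 to 410, and for Lcn2 43.2 to 208 and 9.96 to 218. In these genes the Nlrp3-/- controls were higher and the stimulated means were similar. Adora2b went from 1.81 to 5.82 in Nlrp3-/- and from 1.96 to 33.3 in wild-type BMDMs.

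Among the protein-coding genes that fell, the most negative differences were of Mpo (-3.58), Ppbp (-3.01), mt-Atp6 (-2.76) and Elane (-2.72). Of the 5 megakaryocyte markers, 4 had a called negative difference, Ppbp included. Of the 9 granulocyte markers that fell, 4 had a called negative difference (Mpo, Elane, Prtn3 and Ctsg), and the differences of S100a9 (-0.03) and Ngp (0.07) were not called. In wild-type BMDMs the mean of Mpo went from 2.09 to 0.0802 FPKM and that of Elane from 4.14 to 0.239. Prtn3 went from 2.39 to 0.437 and Ctsg from 2.68 to 0.277 there. At such low levels log2(FPKM + 1) understates the wild-type fall, which makes the difference more negative. The granulocyte sum in wild-type control, 386 to 423 FPKM, was below that in Nlrp3-/- control. Of 52 mitosis genes 9 had a positive difference, with medians of -0.87 in Nlrp3-/- and -1.53 in wild-type BMDMs, and of 43 replication genes 4 had one. Kif20a (1.18), Cenpa (1.05) and Rrm2 (1.20) thus fell by less in Nlrp3-/- BMDMs. Gas6 (1.47), Sesn1 (1.04) and Cd28 (1.80) fell by less too.

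Genotype in this comparison goes with other differences between the mice. Xist was 32.8 to 56.3 FPKM in Nlrp3-/- libraries and at most 0.0416 FPKM in wild-type libraries, whereas 4 genes of the Y chromosome (Uty, Kdm5d, Ddx3y and Eif2s3y) had values from 0.903 to 10.95 FPKM in the latter and 0 throughout in the former. Nnt, which differs between C57BL/6 substrains, was 0.670 to 1.47 and 4.09 to 10.3 FPKM. The fibroblast sum was 234 to 241 FPKM in wild-type control, below the 1551 to 1568 FPKM in Nlrp3-/- control. Sex, source, the mixture of cells in the culture and genotype cannot be told apart in the differences between responses. The fold changes within Nlrp3-/- BMDMs compare libraries of 1 genotype and do not involve sex, source or genotype, although the SE and p-values pool the spread of all 12 libraries.

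**Figure D5:**
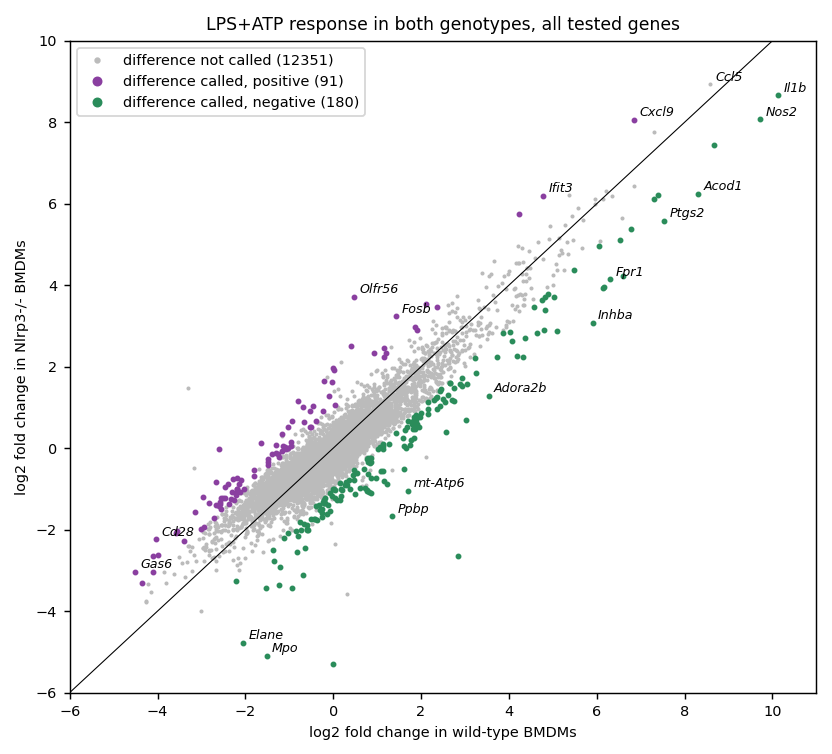
Log2 fold change with LPS+ATP in Nlrp3-/- BMDMs (vertical) against wild-type BMDMs (horizontal) for the 12622 tested genes, each from 3 control and 3 stimulated libraries. The line marks equal change. Green points (180) have a called negative and purple points (91) a called positive difference. Il1b (8.66 against 10.13), Nos2 and Acod1 lie below the line among the largest rises, and Mpo and Elane below it among the falls.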

How the data were processed

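RNA-seq of 12 libraries of mouse BMDMs was analysed, 3 for each of 4 groups taken from the labels. The authors deposited 1 table of FPKM values per gene and library, and the values were used as deposited. The submitters' processing notes name DESeq2 1.24.0 and the build GRCm39. The aligner is not given in the sources used here, the number of reads per library is unknown, and 0 per-sample columns were left unused. FPKM sums were 283278 to 299393 per library.

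Values were analysed as log2(FPKM + 1), which understates the change of low genes. Genes with at least 1 FPKM in at least 3 of 12 libraries were kept. In R 4.3.3, limma 3.58.1 was fitted to the 4 group means with an intensity trend, and p-values were adjusted over all tested genes by the Benjamini-Hochberg method. A call needed an adjusted p under 0.05 and a log2 change of at least 1. The fit was tested on simulated data. Summaries and figures used Python 3.11.15 with numpy 2.4.6, pandas 2.3.3 and matplotlib 3.10.9. Biotypes and overlaps came from GENCODE M21, an annotation of an earlier build used by gene identifier only, and near copies from blastn 2.17.0+ (95% identity or more, across 20% or more of a gene's longest transcript).

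Genes were named by rule: Nlrp3, the 15 protein-coding genes with the largest called rises and the 15 with the largest falls whose groups did not overlap, the 10 with the highest mean FPKM under LPS+ATP, up to 3 called members with the largest rises and up to 3 with the largest falls in each list, a hand-picked set of cytokine, inflammasome and fatty acid genes, the 5 most positive and 5 most negative differences between genotypes, and the cell type markers. Some genes that the rule names are not reported here. The members and lists were chosen with earlier results of these data known. Alternatives were another pseudocount (0.1), no filter and a filter at 5 FPKM, TPM, median-ratio and upper-quartile scaling, no fold limit, no variance trend, the Nlrp3-/- libraries alone, a replicate block and leaving out each library.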

Additional observations from a re-analysis of the deposited data

Results flagged for a closer look

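In 43 of the named genes the response to LPS+ATP differed between genotypes by the interaction term of limma. Over all 12622 tested genes, 271 had such a difference. Some of the named genes were chosen for having the most positive or most negative differences, and for Nlrp3 the knockout fixes the difference in advance. The count of 43 therefore partly reflects the choice of genes and is not a rate to set against that of all genes. The values below are log2 fold changes in Nlrp3-/- minus those in wild-type BMDMs. Genotype goes with sex and source of the mice and with the levels of markers of other cell types, and these cannot be told apart. The fibroblast sum was 1551 to 1568 FPKM in Nlrp3-/- control and 234 to 241 FPKM in wild-type control. The granulocyte sum was 1941 to 1987 and 386 to 423 FPKM.

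Among these genes, negative differences in genes that rose in Nlrp3-/- BMDMs were -1.46 for Il1b, -1.23 for Il1a, -2.07 for Acod1, -1.65 for Nos2, -1.39 for Slc7a2, -1.96 for Ptgs2, -1.20 for Ptges, -1.18 for Saa3, -2.08 for Lcn2, -1.17 for Socs3 and -1.80 for Bcl2a1a. The receptors Fpr1 (-2.16), Fpr2 (-2.35), Marco (-1.66) and Adora2b (-2.25) and the secreted or inhibitor proteins Inhba (-2.83) and Serpinb2 (-1.41) also rose by less. Control means in Nlrp3-/- and wild-type BMDMs were 29.4 and 5.47 FPKM for Fpr1, 18.7 and 3.29 for Fpr2 and 43.2 and 9.96 for Lcn2. Their stimulated means were similar. Control means were also higher in Nlrp3-/- BMDMs for Il1b (1.46 against 0.239 FPKM), Ptgs2 (2.49 against 0.327) and Ptges (4.52 against 1.67). Stimulated means of these genes were 995 against 1386, 166 against 245 and 379 against 420 FPKM. The control means of Adora2b were 1.81 and 1.96 FPKM. Nlrp3 itself (-1.67) was listed at 0 in all Nlrp3-/- libraries. Among genes that rose, the differences were positive for Cxcl9 (1.21), Ifit3 (1.41), Fosb (1.81), Nr4a1 (1.42), Olfr56 (3.24), C1rb (2.10) and Gm16867 (1.91). Olfr56, an olfactory receptor gene, was at 0.256, 0.294 and 0.240 FPKM in control and 15.3, 16.0 and 15.7 FPKM with LPS+ATP, and C1rb, a complement protease gene, at 0, 0 and 0.184 FPKM in control and 5.41, 4.57 and 5.15 FPKM with LPS+ATP. Gm16867 was at 1.63, 1.68 and 1.73 FPKM in control and 9.45, 8.09 and 9.98 FPKM with LPS+ATP. All 3 have a near copy or overlap another gene, so their values are uncertain.

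Among genes that fell, the granulocyte precursor genes with negative differences were Mpo (-3.58), Elane (-2.72), Prtn3 (-2.13), Ctsg (-1.91) and Ms4a3 (-2.44). Their wild-type control means were low, from 0.764 FPKM for Ms4a3 to 4.14 FPKM for Elane, where log2(FPKM + 1) understates a fall. The differences of the other granulocyte markers that fell were not called, with -0.03 for S100a9, 0.07 for Ngp, -0.98 for Ltf, -0.70 for S100a8 and -0.44 for Retnlg. The others with negative differences were Ppbp (-3.01), mt-Atp6 (-2.76), Mgll (-2.49), Hpgd (-1.73), Cxcl12 (-1.04) and Sned1 (-1.03). The falls were smaller in Nlrp3-/- BMDMs for Gas6 (1.47), Cd28 (1.80), Sesn1 (1.04), Rgs2 (1.01) and the cell cycle genes Cenpa (1.05), Kif20a (1.18) and Rrm2 (1.20).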

How the results depend on the processing

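No called change among the 179 named genes reversed under any alternative run, and 14 genes changed their call in at least 1. Against 838 genes higher and 1036 lower, there were 2594 and 6789 with no fold limit, 1073 and 1774 with a pseudocount of 0.1, 1093 and 604 with median-ratio scaling, 932 and 802 with upper-quartile scaling, 1086 and 1416 with TPM and 681 and 759 with a filter at 5 FPKM. Leaving out 1 library gave 841 to 855 higher and 1027 to 1039 lower. For the difference between genotypes (91 positive, 180 negative) the counts were 200 and 301 with TPM, 272 and 362 with a pseudocount of 0.1, 1852 and 1642 with no fold limit, and 83 to 95 and 180 to 189 without 1 library. With median-ratio scaling 12 of the 179 genes were no longer called (Cebpa, Casp9, Psap, Pycard, P2ry1, Il1r1, Cxcl12, Idh2, Dhcr7, Hacd1, Bcl2l11 and mt-Atp6) and B2m was. The cause of these shifts was not tested. In 3 of 38 lists the median changed sign with that scaling, from -0.02 to 0.26 for purinergic genes, -0.12 to 0.15 for MHC class II and -0.18 to 0.10 for fatty acid synthesis.

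The replicate numbers gave no sign of pairing. Same-numbered Nlrp3-/- libraries had correlations of -0.049 to 0.008 between their deviations from the group means, and 0 of 6 libraries correlated best with its own number. With a replicate block 838 genes were higher and 1039 lower, the difference was positive for 89 and negative for 181, and no named gene changed its call.

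The number of reads is unknown, so no counting error can be given for genes of low FPKM.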
